A study of Mus musculus with 10 samples.

Results

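Histone lysine methyltransferases place methyl groups on lysine residues of histone tails, and the 38 genes described here encode these enzymes, related SET domain and SMYD proteins, and the partner subunits that several of them need. The 38 members were a list of symbols selected on the measured difference between APP/PS1 and control libraries, and all 38 were among the 14106 genes with deposited values. The genotype difference of a member is therefore given as a description and supports nothing by itself. The relations between related enzymes, the exon lengths and the promoter sequences of the members did not enter the choice. Levels entered it only through the authors' filter on low counts, which every deposited gene had passed.

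Methylation of histone H3 at lysine 4 by the COMPASS family of complexes marks promoters and enhancers, methylation of lysines 36 and 79 of H3 accompanies transcribed gene bodies, and methylation of lysines 9 and 27 of H3 and of lysine 20 of histone H4 is linked to silent or compacted chromatin. Most of these enzymes carry a catalytic SET domain, while Dot1l has a different fold. In endothelial cells the Polycomb enzymes that methylate lysine 27, and the enzymes that oppose them, are known for their part in vessel growth and endothelial identity.

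Bulk RNA sequencing was performed on brain endothelial cells (BECs) of the cortex of female mice aged 1 year, 5 libraries each for the APP/PS1 genotype and for age-matched controls. The APP/PS1 genotype is transgenic, serves as a mouse model of Alzheimer's disease and leads to amyloid-beta deposits in the brain. The controls, labelled WT, shared the C3H/BL6 background. BECs were CD31+CD45− cells collected with microbeads after enzymatic dissociation. The promoter of the transgenes, and whether a library came from 1 mouse or a pool, are not given in the sources used here, so an SD describes the spread between libraries.

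Values are log2 CPM, the log2 of the counts scaled to a common library size, after the authors' batch correction. Control and APP/PS1 libraries with the same replicate number formed a batch and are called a pair, and a difference is APP/PS1 minus control in log2 CPM. The values converted back to whole adjusted counts that summed to between 22371766 and 126686149 per library, with replicate 1 the shallowest in both groups. The correction had set the mean of a pair to nearly the same value in every pair: for the median member the pair means had an SD of 0.0022 log2 units and the pair differences one of 0.123. The libraries of a pair are thus mirror images around the gene's mean, and the SD within a group reflects the same variation as the SD of the pair differences. Of 16 endothelial markers, 16 were measured, with a median level of 10.2 log2 CPM and a summed level of 31863 to 34261 CPM in the control libraries and 32628 to 35128 in the APP/PS1 libraries.

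Promoter sequences are shown for the members that were above the control in all 5 pairs, because these had the same direction of difference in every pair, as described below. RefSeq promoter windows (assembly GRCm38.p6, 250 bases before a start site) were found for 28 of the 38 members. Bases covered by an annotated exon or by a RefSeq gene were left out, and the longest remaining stretch is shown. For Setd5 too little of the window remained, and it is not shown. Capitals mark a GC box, searched as GGGCGG on both strands. The stretches, each written 5′ to 3′ on the strand of the gene, were Suv39h2 at chr2:3475032-3475236 on the minus strand, Suz12 at chr11:79992856-79993105 on the plus strand and Dot1l at chr10:80754953-80755100 on the plus strand.
Suv39h2: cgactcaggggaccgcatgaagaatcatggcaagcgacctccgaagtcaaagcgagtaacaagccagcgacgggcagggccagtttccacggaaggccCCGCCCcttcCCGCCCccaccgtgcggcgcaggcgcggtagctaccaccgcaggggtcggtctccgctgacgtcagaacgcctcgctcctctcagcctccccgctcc
Suz12: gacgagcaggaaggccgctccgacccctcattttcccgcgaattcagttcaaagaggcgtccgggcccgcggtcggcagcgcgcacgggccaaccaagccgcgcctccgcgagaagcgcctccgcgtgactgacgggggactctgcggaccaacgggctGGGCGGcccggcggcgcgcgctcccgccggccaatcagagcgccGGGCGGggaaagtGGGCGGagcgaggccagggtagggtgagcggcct
Dot1l: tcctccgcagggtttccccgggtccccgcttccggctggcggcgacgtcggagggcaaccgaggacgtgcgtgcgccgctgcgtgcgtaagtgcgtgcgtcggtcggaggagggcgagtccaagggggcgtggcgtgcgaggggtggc

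The Suv39h2 stretch held 22 CpG dinucleotides and 2 GC boxes, the Suz12 stretch 37 CpG dinucleotides and 3 GC boxes, and the shorter Dot1l stretch 23 CpG dinucleotides and no match to the GC box. Over the 37 windows of the members, the median GC content was 67.2% and the median number of CpG dinucleotides was 24, whereas over all 32851 windows these were 52.4% and 6. A GC box occurred in 64.9% of the member windows and in 32.7% of all windows. A CCAAT box, searched as CCAAT on both strands, occurred in 35.1% and 33.8%, respectively. The motif of interferon regulatory factors, searched as GAAANNGAA on both strands, was found in 2.70% of member windows and in 7.13% of all windows, and the ETS motif CCGGAAGT in 0% and 2.88%. The interferon motif share of the members is 1 window. All windows include those of genes without deposited values, and no share over the measured genes was computed. A difference from all windows therefore cannot be called particular to the members. These matches describe the letters of the windows and are not binding sites.

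All 38 members were expressed in BECs, which was given in advance, since the authors had removed genes with low counts from the deposited values. The lowest adjusted count of any member in any library was 46, for Suv39h2, and the next lowest member, Setd6, had at least 162. Levels are compared between genes only after division by exon length, as log2 CPM per kilobase, with mean ± SD over the 10 libraries. Exon length counts the merged exons of all annotated transcripts, 6678 bases for Ezh2 and 9184 for Smyd3. The transcripts in use were not determined, so the order, the percentiles and the folds between genes depend on this length. On this scale 27 of the 38 members lay above the median of all genes. Kmt2e, which encodes a SET domain protein without known methyltransferase activity on its own, had the highest level, at 4.87 ± 0.11. Ezh1, a catalytic subunit of Polycomb repressive complex 2 (PRC2), followed at 4.56 ± 0.03, and it was below Kmt2e in all 10 libraries. At the other end stood Ezh2, the alternative catalytic subunit of PRC2, at 1.14 ± 0.07, Smyd3 at 0.98 ± 0.07 and Suv39h2 at −1.11 ± 0.11. Suv39h2 was at the 9.55th percentile of all genes and Kmt2e at the 89.8th. Of the 37 neighbouring positions in this order, 15 kept their order in all 10 libraries. The batch correction had evened out the pairs, so the 10 libraries are not 10 separate checks of an order. From Smyd2 down to Kmt2c, with Wdr5, Setd5, Setd7 and Dpy30 between them, each neighbour was ahead of the next in only 5 or 6 libraries, so the order of these 6 members is not resolved.

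**Figure D1:**
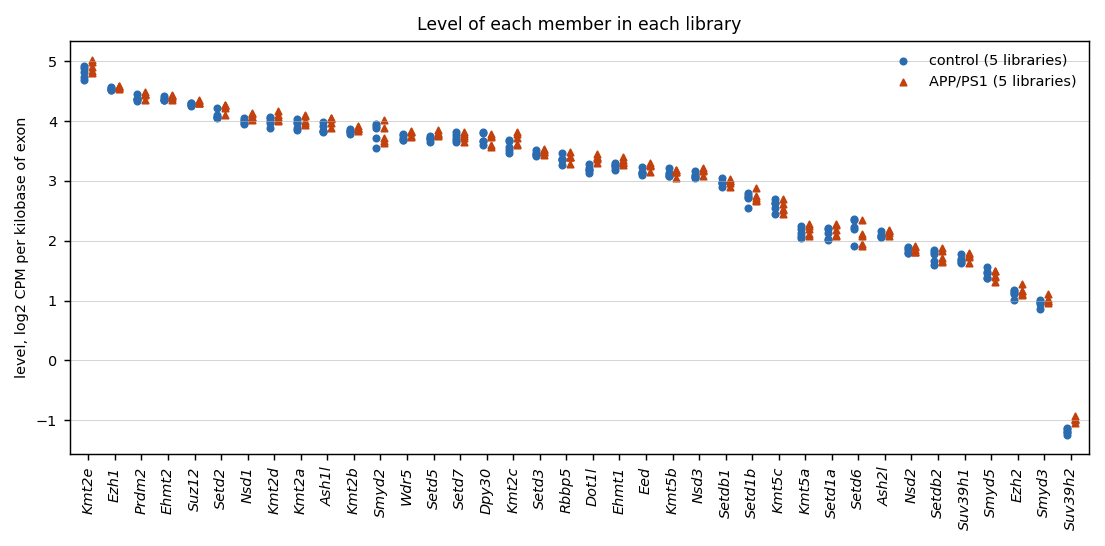
Level of the 38 members in log2 CPM per kilobase of exon, ordered by the mean over 10 libraries, with a circle for each control library and a triangle for each APP/PS1 library. The levels run from 4.87 for Kmt2e to −1.11 for Suv39h2, and for most members the symbols of both groups cover the same range.

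Related enzymes that place the same mark had unequal levels per kilobase of merged exons, and the sizes of these differences depend on the exon lengths used. The higher one was the same in every library, after a batch correction that had evened out the pairs. Ezh1 exceeded Ezh2 by 3.42 ± 0.09 log2 units per kilobase in the control libraries (SD, n = 5) and by 3.41 ± 0.09 in the APP/PS1 libraries, which is 10.7-fold in the mean over all libraries. Suv39h1 and Suv39h2, which trimethylate lysine 9 of H3 in heterochromatin, differed by 2.89 ± 0.09 and 2.74 ± 0.08, with Suv39h1 above. Ehmt2 (G9a) was 1.13 ± 0.05 above its partner Ehmt1 (GLP) in the control libraries and 1.08 ± 0.05 in the APP/PS1 libraries. In each of the 3 relations 1 gene had the higher level per kilobase in both genotypes, for Ehmt2 by 2.15-fold in the mean over all libraries.

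Among the NSD enzymes, which dimethylate lysine 36 of H3, Nsd1 exceeded Nsd3 by 0.91 ± 0.03 and 0.92 ± 0.03 log2 units per kilobase in the control and APP/PS1 libraries, and Nsd2 by 2.16 ± 0.04 and 2.23 ± 0.04. Setdb1 exceeded Setdb2 by 1.23 ± 0.09 and 1.24 ± 0.09. Within the COMPASS family the relations were closer. Setd1b exceeded Setd1a by 0.60 ± 0.09 and 0.56 ± 0.09, Kmt2d exceeded Kmt2c by 0.42 ± 0.04 and 0.36 ± 0.04, and Kmt2a and Kmt2b differed by 0.12 in the control and 0.14 in the APP/PS1 libraries. The counting with respect to strand is not given in the sources used here. Other annotated genes overlapped 52.3% of the exon bases of Setd1a, 30.0% of Smyd2 and 14.6% of Suv39h1, so the values of these 3 members may include reads of those genes.

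The question for the genotype comparison was whether these chromatin enzymes differ in BECs by genotype. No member passed an adjusted p of 0.05 in the limma model with replicate number as a block, and neither did any other gene (0% of 14106 genes), the smallest adjusted p being 0.537 among the members and 0.195 among all genes. At an unadjusted p under 0.05 there were 2 members, Suv39h2 and Dot1l, against 8.03% of all genes. Voom weights in the same model also gave 0 calls, and 1 member at an unadjusted p under 0.05. All differences were small. The mean difference over 5 pairs ranged from −0.13 for Setd6 to 0.20 for Suv39h2, and its standard error from 0.0423 to 0.137. Every SE of a mean difference given here is the moderated error of the limma model, which borrows spread from all genes. The mean difference itself exceeded 0.1 in 5 members, Suv39h2, Dot1l, Kmt2c, Ash1l and Setd2, and was below −0.1 in 1, Setd6.

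The mean difference was above 0 in 33 of the 38 members and in 48.2% of all genes, and below 0 in Dpy30, Kmt5c, Setd6, Smyd2 and Smyd5. The median over the members was 0.04 and the median over all genes −0.0038. The members were chosen with this contrast in view, so nothing is read from the count. It also depended on the scaling of the libraries. With CPM over library size alone, 23 members and 31.9% of all genes had a mean difference above 0, and the median of all genes moved to −0.04. When each library was shifted to a common median gene, these numbers were 34 members and 57.4%. Either scaling shifts all genes of a library nearly alike, so the members' median could hardly move from 0.05 above that of all genes.

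The pairs were not alike. In pair 1, the shallowest, 32 members were above the control (49.1% of all genes), with a median difference of 0.12 over the members. In pair 2 the number was 20 (50.3% of all genes) with a median of 0.004. Pairs 3, 4 and 5 had 27, 22 and 29 members above the control, beside 48.4%, 48.9% and 47.8% of all genes, and medians of 0.07, 0.04 and 0.03. Without pair 1, 31 members had a mean difference above 0, and without pair 2 it was 30. Differences above 0 in all 5 pairs were seen in 4 members and in 2.99% of all genes, and below 0 in all 5 pairs in 0 members and 5% of all genes. A further 15 members were above 0 in 4 pairs, 13 in 3, 5 in 2 and 1 in 1.

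**Figure D2:**
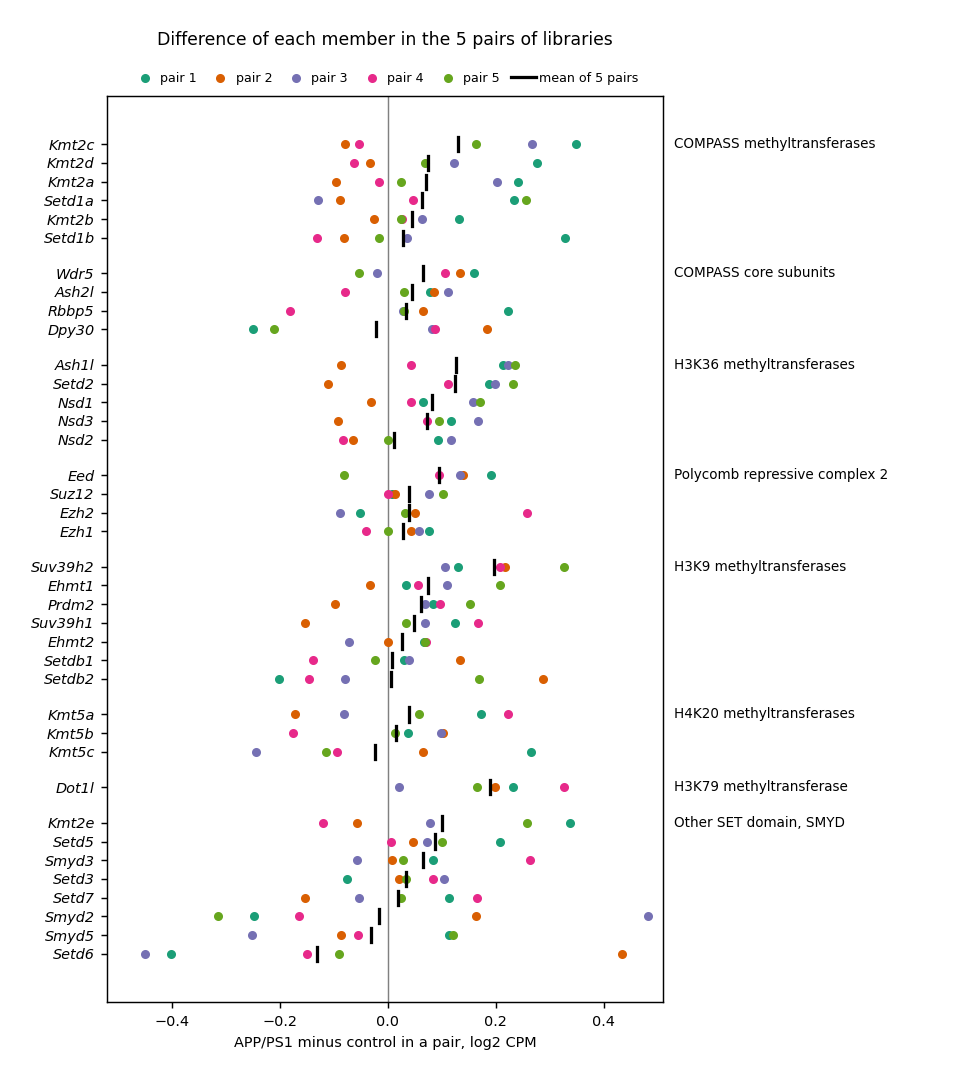
APP/PS1 minus control in log2 CPM for each member in each of 5 pairs of libraries (coloured points), with the mean of the pairs as a black bar and members grouped by role. Suv39h2, Dot1l, Setd5 and Suz12 have all 5 points above 0, and every COMPASS methyltransferase has its pair 2 point below 0.

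The values of all 5 control libraries lay below those of all 5 APP/PS1 libraries in the same 4 members, Suv39h2, Dot1l, Setd5 and Suz12, as they did in 2.91% of all genes. The opposite separation occurred in 0 members and 4.96% of all genes. Because of the mirrored pairs this separation and the same direction in all pairs are nearly the same property. Suv39h2, which encodes a heterochromatin H3K9 methyltransferase, measured 1.01, 0.94, 1.00, 0.95 and 0.89 log2 CPM in control libraries 1 to 5 and 1.14, 1.16, 1.10, 1.16 and 1.22 in APP/PS1 libraries 1 to 5. The groups did not overlap, and the difference was smallest in pair 3 and largest in pair 5. Over the pairs Suv39h2 had a mean difference of 0.20 ± 0.05 (moderated SE, n = 5 pairs), or 1.15-fold. This is the most weakly expressed of the members, and 9.98% of its exon bases are shared with other annotated genes, Dclre1c and Gm13184.

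Dot1l is the methyltransferase of lysine 79 of H3 and the only such enzyme. Its levels were 6.30, 6.31, 6.40, 6.25 and 6.33 log2 CPM in the control libraries and 6.53, 6.51, 6.42, 6.58 and 6.50 in the APP/PS1 libraries. The groups were apart, but in pair 3 the libraries differed by only 0.02, while in pair 4 they differed by 0.33. Dot1l had a mean difference of 0.19 ± 0.06 (SE), or 1.14-fold. Leaving out 1 pair at a time did not bring the mean difference of Dot1l or Suv39h2 below 0.15. Both have the largest differences in a list chosen on this contrast, so these values add no support.

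Setd5 encodes a SET domain protein of chromatin that is known as a neurodevelopmental gene. Its levels in the control libraries were 7.84, 7.92, 7.91, 7.95 and 7.90 log2 CPM, and in the APP/PS1 libraries 8.05, 7.97, 7.98, 7.95 and 8.0. Pair 1 had the largest difference, at 0.21, and pair 4 the smallest, at 0.01. The mean difference was 0.09 ± 0.05 (SE), and without pair 1 it was 0.06.

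Suz12 encodes a core subunit that PRC2 needs for its activity. The control libraries had 6.60, 6.60, 6.57, 6.61 and 6.56 log2 CPM and the APP/PS1 libraries 6.61, 6.61, 6.65, 6.61 and 6.66. The groups touched without overlapping, and only pairs 3 and 5 were clearly apart. The mean difference of 0.04 ± 0.04 (SE) was no larger than this moderated error, and the SD of the Suz12 pair differences was 0.0462.

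**Figure D3:**
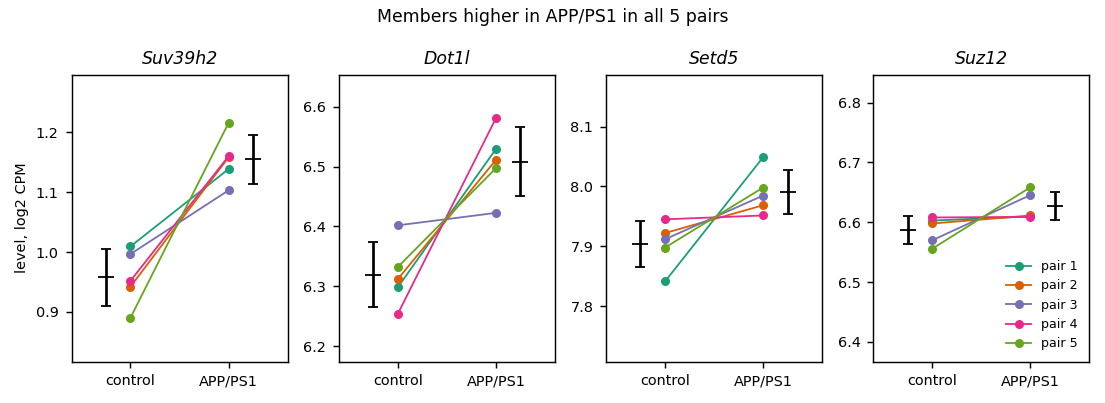
Level in log2 CPM of Suv39h2, Dot1l, Setd5 and Suz12 in each library, with a line for each pair and the mean ± SD of each group (n = 5) beside the points; all panels span the same range of log2 units. The APP/PS1 end of each line is the higher one, by 0.02 in pair 3 to 0.33 in pair 4 for Dot1l, and they are nearly flat in several pairs of Suz12.

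The COMPASS methyltransferases of H3K4 comprise Kmt2a, Kmt2b, Kmt2c, Kmt2d, Setd1a and Setd1b. The mean difference was above 0 in 6 of 6, with a median of 0.07, but the median by pair was 0.26 in pair 1, −0.08 in pair 2, 0.09 in pair 3, −0.04 in pair 4 and 0.05 in pair 5, and in pair 2 none of the 6 was above the control. Kmt2c (MLL3), an enhancer H3K4 monomethyltransferase, had the largest mean difference, with 7.81, 8.02, 7.85, 8.01 and 7.90 log2 CPM in the control and 8.15, 7.94, 8.12, 7.96 and 8.07 in the APP/PS1 libraries. The groups overlapped, since control libraries 2 and 4 were above APP/PS1 libraries 2 and 4. Its mean difference was 0.13 ± 0.08 (SE), and it was 0.07 without pair 1 and 0.18 without pair 2. The other mean differences were 0.07 for Kmt2d (MLL4) and for Kmt2a (MLL1), 0.06 for Setd1a, 0.04 for Kmt2b (MLL2) and 0.03 for Setd1b. Without pair 1 Setd1b turned to the other sign.

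The subunits shared by all COMPASS complexes, Wdr5, Rbbp5, Ash2l and Dpy30, bind the methyltransferases and stimulate their activity. Of these 4, 3 had a mean difference above 0, with a median of 0.04. Wdr5, the scaffold subunit, had 5.53, 5.54, 5.62, 5.56 and 5.63 log2 CPM in the control and 5.69, 5.67, 5.60, 5.66 and 5.58 in the APP/PS1 libraries. Pairs 1, 2 and 4 were above the control, pairs 3 and 5 were below it, and the groups overlapped. The mean difference of Wdr5 was 0.07 ± 0.05 (SE), beside 0.05 for Ash2l, 0.03 for Rbbp5 and −0.02 for Dpy30.

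The H3K36 methyltransferases, Setd2, which places the trimethyl mark behind elongating RNA polymerase II, and Nsd1, Nsd2, Nsd3 and Ash1l, which place lower methyl states, had a mean difference above 0 in 5 of 5 and a median of 0.08. Their median by pair was 0.12, −0.09, 0.17, 0.04 and 0.17 in pairs 1 to 5, and, as for the H3K4 enzymes, none was above the control in pair 2. Ash1l measured 7.72, 7.87, 7.72, 7.81 and 7.71 log2 CPM in the control and 7.93, 7.78, 7.94, 7.85 and 7.95 in the APP/PS1 libraries. Only the second pair was inverted, and through it the groups overlapped. Mean differences were 0.13 ± 0.07 (SE) for Ash1l and 0.12 ± 0.06 for Setd2, followed by 0.08 for Nsd1, 0.07 for Nsd3 and 0.01 for Nsd2.

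PRC2 consists of Ezh1 or Ezh2 with Eed and Suz12, and methylates lysine 27 of H3. All 4 members had a mean difference above 0, with a median of 0.04. Eed, the subunit that reads the trimethyl mark, had 5.04, 5.07, 5.07, 5.09 and 5.18 log2 CPM in the control and 5.23, 5.20, 5.21, 5.19 and 5.09 in the APP/PS1 libraries. In 4 pairs APP/PS1 was above the control, and pair 5 was inverted, so the groups overlapped. The mean difference was 0.10 ± 0.05 (SE) for Eed, 0.04 ± 0.06 for Ezh2 and 0.03 ± 0.04 for Ezh1.

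Among the H3K9 enzymes the mean difference was above 0 in 7 of 7, with a median of 0.05 and Suv39h2 the highest. The others were Ehmt1 at 0.08, Prdm2 at 0.06, Suv39h1 at 0.05, Ehmt2 at 0.03, and Setdb1 and Setdb2, which act in the silencing of repeats, at 0.01 each. Kmt5a, which monomethylates lysine 20 of H4, had 4.48, 4.65, 4.61, 4.46 and 4.54 log2 CPM in the control and 4.65, 4.48, 4.53, 4.68 and 4.60 in the APP/PS1 libraries. The ranges of both groups nearly coincided, and the mean difference was 0.04 ± 0.07 (SE). Kmt5b and Kmt5c, which extend the mark to di- and trimethyl, had mean differences of 0.01 and −0.02.

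Of the other SET domain and SMYD proteins, 5 of 8 had a mean difference above 0, with a median of 0.03. Besides Setd5 these were Kmt2e at 0.10 ± 0.08 (SE), Smyd3 at 0.07, Setd3, an actin histidine methyltransferase, at 0.03, and Setd7, which also methylates proteins other than histones, at 0.02. Setd6, known for methylating the NF-kB subunit RelA, had the lowest mean difference of all members. It measured 3.28, 2.84, 3.30, 3.16 and 3.13 log2 CPM in the control and 2.88, 3.28, 2.85, 3.01 and 3.04 in the APP/PS1 libraries. APP/PS1 was below the control in 4 pairs and well above it in pair 2, and the groups overlapped over nearly their whole range. For Setd6 the mean difference was −0.13 ± 0.14 (SE). Smyd5 and Smyd2 were at −0.03 and −0.02, and the pair differences of Smyd2 spread from −0.32 to 0.48.

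The mean difference varied with exon length, and in opposite directions in strongly and weakly expressed genes. The median exon length was 7430 bases in the members and 4155.5 in all genes, and the median level was 6.19 log2 CPM in the members and 4.30 in all genes. All 18 members with at least 8 kb of exon had a mean difference above 0, as did 15 of the 20 shorter ones. The members were chosen on this difference, so nothing is read from these counts. Across the 38 members the rank correlation of the mean difference with exon length was 0.45, where the points share the same libraries. Among the 5503 genes of all kinds with a mean of at least 5 log2 CPM it was 0.27, and over all genes 0.07. Of these more strongly expressed genes, the mean difference was above 0 in 47.4% of those with under 4 kb of exon, in 63.8% of those with 4 to 8 kb and in 75.5% of those with at least 8 kb, where the median was 0.04. Below a mean of 5 log2 CPM the shares were 41.1%, 37.9% and 30.7% in the same order, with a median of −0.07 in the longest class.

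Of the members below 5 log2 CPM, the mean difference was above 0 in 0 of 2 with under 4 kb of exon, in 6 of 8 with 4 to 8 kb and in 1 of 1 with at least 8 kb. The 17 members with at least 8 kb that reached 5 log2 CPM had a median of 0.07. By pair, the medians of the 1516 long and strongly expressed genes were 0.09, −0.02, 0.07, −0.004 and 0.08, and those of the 17 members were 0.19, −0.06, 0.11, 0.01 and 0.09. The 17 members are among the 1516 genes, and both sets were below 0 in pair 2 and had their largest value in pair 1. The part of exon length in the members' differences was not tested, and the length classes were chosen after the values were seen.

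**Figure D4:**
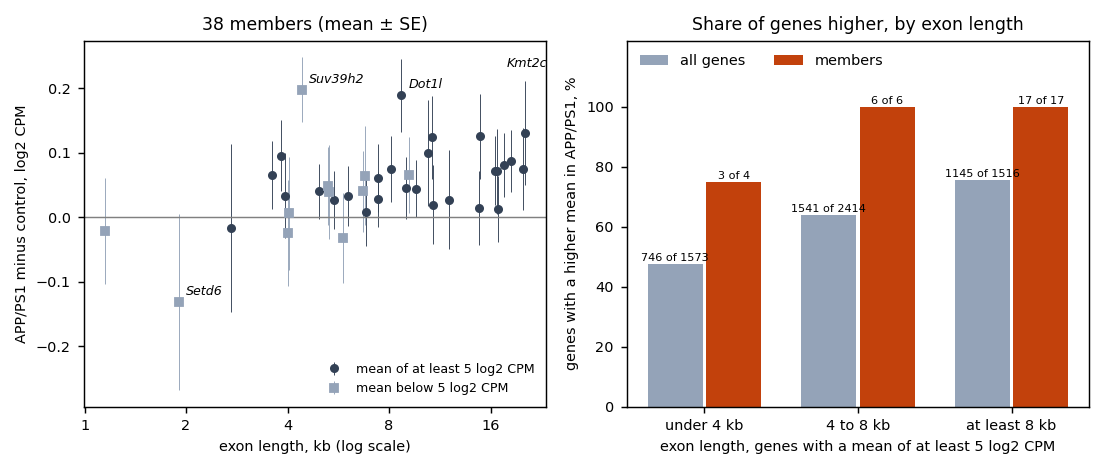
Left, mean difference APP/PS1 minus control in log2 CPM (± SE of the limma model) of each member against its exon length in kb on a log axis. Right, percentage of genes with a higher mean in APP/PS1 among all genes and members with a mean of at least 5 log2 CPM, in 3 classes of exon length; the share rises from 47.4% to 75.5% of all genes, and 17 of 17 long members were higher.

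Most markers of other cell types of the cortex had lower means in APP/PS1 libraries, with 0 markers passing the adjusted p in the limma model. At an unadjusted p under 0.05 in that model, 8 of 9 mural and 3 of 8 astrocyte markers were lower. So were 6 of 10 oligodendrocyte lineage and 2 of 4 neuron markers, and 0 markers of these lists were higher. Among all genes 8.03% passed this unadjusted p in either direction. The mean difference was below 0 in 9 of 9 measured mural cell markers, with a median of −0.76, and their summed level was 606 to 1020 CPM in the control and 315 to 609 CPM in the APP/PS1 libraries. It was below 0 in 7 of 8 astrocyte markers, with a median of −0.98 and sums of 171 to 209 and 171 to 212 CPM, and the exception, Gja1, was also the most strongly expressed of these markers at 7.22 log2 CPM, with a mean difference of 0.27. It was below 0 in 10 of 10 measured markers of the oligodendrocyte lineage, with a median of −1.05 and sums of 63.8 to 307 and 45.0 to 158 CPM. One defining marker of the oligodendrocyte lineage was at 0 in at least 1 library, and Mog and Cnn1 were not among the deposited genes.

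The median of the endothelial markers was 0.03, and 12 of 16 were above 0. In bulk RNA fewer cells of a type and less RNA per cell cannot be told apart. By pair, the mural medians were −1.61, −0.27, −0.66, −1.45 and 0.12 and the astrocyte medians −2.60, 0.45, −1.86, −1.21 and −0.20, with the lowest value of both lists in pair 1. The part of these cell types in the members' differences was not tested. Medians were −0.61 over 4 measured neuron markers of 10, −0.24 over 6 microglia and leukocyte markers of 8, and −1.16 over 4 erythroid markers of 5. Of 9 cycling markers, 3 were measured, and Mki67 and Top2a, which define cycling cells, were not among the deposited genes.

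**Figure D5:**
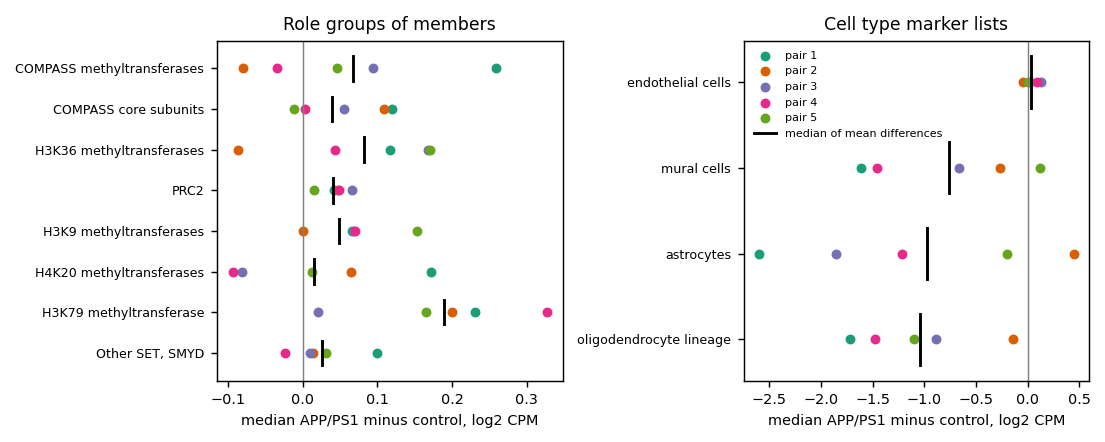
Median difference APP/PS1 minus control in log2 CPM over the genes of a list, for each of 5 pairs (coloured points), with the median of the mean differences as a black bar, for the role groups of the members (left) and for marker lists of cell types (right, on a wider axis). COMPASS and H3K36 methyltransferases have their pair 2 median below 0, and the mural and astrocyte lists have their lowest median in pair 1.

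Other subunits and opposing enzymes of the same pathways were described from lists written by pathway membership, and 0 genes of these lists passed the adjusted p in the limma model. Of 7 measured COMPASS accessory subunits 6 had a mean difference above 0, with a median of 0.05. Paxip1 (PTIP), which belongs to the Kmt2c and Kmt2d complexes, was above the control in 5 pairs with a mean difference of 0.08 ± 0.04 (SE), and Ncoa6, of the same complexes, was at 0.07 ± 0.07. Of 8 measured PRC2 accessory subunits 7 were above 0, with a median of 0.04. Jarid2, which recruits PRC2 to its targets, was above the control in 5 pairs and had a mean of 5.52 ± 0.07 log2 CPM in the control and 5.71 ± 0.06 in the APP/PS1 libraries (SD, n = 5). Its mean difference of 0.19 ± 0.06 (SE) was close in size to those of Suv39h2 and Dot1l, and 1 PRC2 accessory subunit passed an unadjusted p of 0.05.

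In Polycomb repressive complex 1, which binds the mark that PRC2 places, 13 of 18 genes had a mean difference above 0 and the median was 0.03. Cbx8, a subunit that reads this mark, was above the control in 5 pairs at 0.13 ± 0.05 (SE). Of 21 measured histone lysine demethylases, which remove the marks, 14 were above 0, with a median of 0.04. Jmjd1c had 8.02 ± 0.09 log2 CPM in the control and 8.26 ± 0.09 in the APP/PS1 libraries (SD, n = 5), with APP/PS1 higher in 4 pairs. Kdm6b, an H3K27 demethylase and an early response gene, had a mean difference of 0.13 ± 0.25 (SE), since its pair differences ran from −0.90 in pair 2 to 0.75 in pair 4.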

How the data were processed

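BECs of 10 libraries were profiled. According to the methods, the authors ran STAR against mm10, HTSeq for gene counts, edgeR for filtering and scaling and ComBat for batches, and deposited log2 CPM. Tool versions are not given in the sources used here. The deposited log2 values converted back to whole numbers (within 0.02) with a prior count of 3, which a ComBat correction of log CPM would not leave in general, so the order of the authors' steps is not settled. The main fit took no precision from these adjusted counts, and only the voom alternative used weights computed from them. GENCODE M21 gave symbols and merged exon lengths for 14106 of 14106 genes.

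Genotype was tested with lmFit and eBayes of limma 3.58.1 in R 4.3.3, with the 5 replicate numbers as a block (4 residual degrees of freedom) and Benjamini-Hochberg adjustment over 14106 genes. The pairing came from a supplementary plot of the study with 5 batches, whereas the labels give 4 batches. Within pairs, deviations from group means had rank correlations of −0.999 to −0.989 over 10873 genes, a sign fixed by the correction. The fit was checked on simulated data.

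The members, lists and rules were chosen with earlier results of these data known. Values in every library are given for members with the same direction in all pairs and for the largest absolute mean difference of each role group, and at most 2 genes, with a mean of at least 1 log2 CPM, are named of each related list. Where replicate libraries are not separate mice, p-values measure technical spread only. Nothing was left out among the deposited columns. A gene that this rule would name and a detail of the transgenes are not reported here.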

Additional observations from a re-analysis of the deposited data

How the results depend on the processing

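Without the replicate block, limma called 648 genes and 2 members, Suv39h2 (adjusted p = 0.0110) and Dot1l (adjusted p = 0.0248), but that fit does not count the 4 degrees of freedom used by the paired batch means. With the 4 batches of the labels it called 1 gene and 0 members. Leaving out 1 replicate gave 0 to 5 genes and 0 members, with 5 genes without replicate 2 and 1 without replicate 5. Voom weights, eBayes with a trend, a smaller prior count, a mean of at least 1 log2 CPM, scaling to the median gene and library size alone, the last chosen after seeing the data, each called 0 genes. Of 494 member differences recomputed under 13 alternatives, 32, in 16 members, changed sign, 10 of them with library size alone. Several alternatives change only the error and leave a difference as it is, so this count says little about stability.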

Other observations

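Histone acetyltransferases, deacetylases, arginine methyltransferases and genes of DNA methylation were measured in the same libraries, and limma called 0 genes of these lists by adjusted p and 0 at an unadjusted p under 0.05. Of 15 acetyltransferases, 12 had a mean difference above 0, with a median of 0.02. The largest were Kat6a at 0.10 ± 0.08 (moderated SE, n = 5 pairs) and Crebbp at 0.09 ± 0.06, and both were below the control in pair 2. Of 15 deacetylases 6 were above 0. Hdac11 was at 2.70 ± 0.13 log2 CPM in the control and 2.47 ± 0.14 in the APP/PS1 libraries (SD, n = 5), with APP/PS1 lower in 4 pairs. Sirt1, a NAD-dependent deacetylase, had a mean difference of 0.18 ± 0.10 (SE) and was below the control in pair 2.

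Of 8 measured arginine methyltransferases, which methylate histones and other proteins on arginine, 1 had a mean difference above 0, with a median of −0.01. The largest absolute values were −0.05 ± 0.06 (SE) for Prmt7 and −0.04 ± 0.07 for Prmt9, within their errors. In the DNA methylation list 6 of 11 genes were above 0, with Uhrf1, which guides the maintenance methyltransferase, at −0.12 ± 0.15 and Tet2, which oxidises methylcytosine, at 0.05 ± 0.09.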
